A study of Mus musculus with 12 samples.

Results

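The G1 cyclins, their kinases and the RB proteins were followed in mouse haematopoietic stem cells from animals given either of the 2 agents that move these cells into the blood. The genes were taken by name: the D-type cyclins Ccnd1, Ccnd2 and Ccnd3, their kinases Cdk4 and Cdk6, the E-type cyclins Ccne1 and Ccne2, their kinase Cdk2, and the RB proteins Rb1 and Rbl2. All 10 were among the 33179 genes tested, and they were covered by 20 of the 56605 probes other than controls. The signal of 18 of the 20 probes was well above background on all 12 arrays.

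In G1, D-type cyclins bind Cdk4 or Cdk6 in answer to growth signals, and the pair phosphorylates the RB proteins. This loosens the hold of RB proteins on E2F factors, which switch on cyclin E and the genes of DNA replication, and cyclin E with Cdk2 completes the phosphorylation. Most long-term stem cells of the marrow rest outside the cycle, and Cdk6 is known for setting how quickly they leave that rest. The arrays measured the RNA of these genes, whereas much of the control of the proteins lies in phosphorylation, inhibitors and degradation.

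There were 4 groups of 3 male mice, with 1 array per mouse and no pooling. The first group of 3 mice received POL5551, which blocks the chemokine receptor CXCR4, as a continuous infusion over 2 weeks at 100 mg/kg per day. The cytokine G-CSF (granulocyte colony-stimulating factor), used to mobilise stem cells, was injected at 100 ug/kg every 12 h, 4 times over 2 days in 3 mice and 9 times over 5 days in 3 others. The controls were 3 sham-operated mice. In every group the cells were sorted from bone marrow as LSK SLAM cells, a lineage-negative gate on Sca-1, Kit and SLAM family markers. Neither strain, age nor cell number is stated in the labels used here. No gene was deleted in any group. The treatments differed in agent, route and duration at once, so a difference between POL5551 and G-CSF mice cannot be assigned to the agent alone.

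Levels are the log2 of an array's processed signal minus its 75th percentile over all probes, so that 0 is the level of a fairly bright probe. Levels of different probes cannot be compared with each other. Differences are given on the log2 scale with limma's standard error, and a gene was called at an adjusted p under 0.05 over all genes tested. An exact permutation test of 3 against 3 mice cannot go below p = 0.1, which is what every pair of groups that did not overlap gave. All statements are on RNA in a sorted pool, where fewer cells of a type and less RNA per cell cannot be told apart.

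Kit, Ly6a (Sca-1), Procr, Mecom and Hlf, which mark the gate or stem cells, were well above background on all 12 arrays, and Slamf1 was on 11. Cd48, Cd34 and Flt3, which should be low in such cells, were also well above background on all 12. Between 75.3% and 85.6% of all probes passed this mark on an array, so it does not show how pure the gate was. Sham mouse 1 stood apart from the other sham mice. Its levels had a rank correlation of 0.787 and 0.784 with sham mice 2 and 3, which had 0.936 with each other. It was the lowest of all 12 arrays in 6 of the 10 genes, against 18.8% of all genes, and was below both other sham mice in 9 of the 10, against 29.9% of all genes. The array medians of 1540 probes for olfactory, vomeronasal, taste and keratin-associated genes, which blood cells should lack, also moved with the groups. They averaged -4.59 ± 0.54 in POL5551 mice, -2.57 ± 0.16 after 2 days and -3.69 ± 0.39 after 5 days of G-CSF, and -2.78 ± 1.02 in sham mice (SD, n = 3 each), with sham mouse 1 highest at -1.60. Differences from sham were therefore also computed without sham mouse 1.

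Across the 5 comparisons no member passed limma's test when all 12 arrays were used, and 4 (POL5551 over sham), 1 (2 days of G-CSF over sham), 1 (5 days over sham), 0 (5 over 2 days) and 1 (POL5551 over 5 days) had an unadjusted p under 0.05. The same held for 35% (POL5551 over sham), 9.12% (2 days over sham), 11.1% (5 days over sham), 16.2% (5 over 2 days) and 11.6% (POL5551 over 5 days) of all genes, so the members' counts were near that background. The background of calls was low: 2.24% of all genes were called between POL5551 and sham mice, 0.0332% between 2 days of G-CSF and sham, 0.0663% between 5 days and sham, 0% between 5 and 2 days, and 0.0603% between POL5551 and 5 days of G-CSF. In the moderated F test over the 4 groups, which called 1.34% of genes, Cdk6 had the smallest adjusted p of the 10 genes, 0.0612, followed by Ccnd1 with 0.0822. With sham mouse 1 left out that test called 6 of the 10, Ccnd1, Ccnd2, Ccne2, Cdk2, Cdk4 and Cdk6, against 23.1% of all genes.

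**Figure D1:**
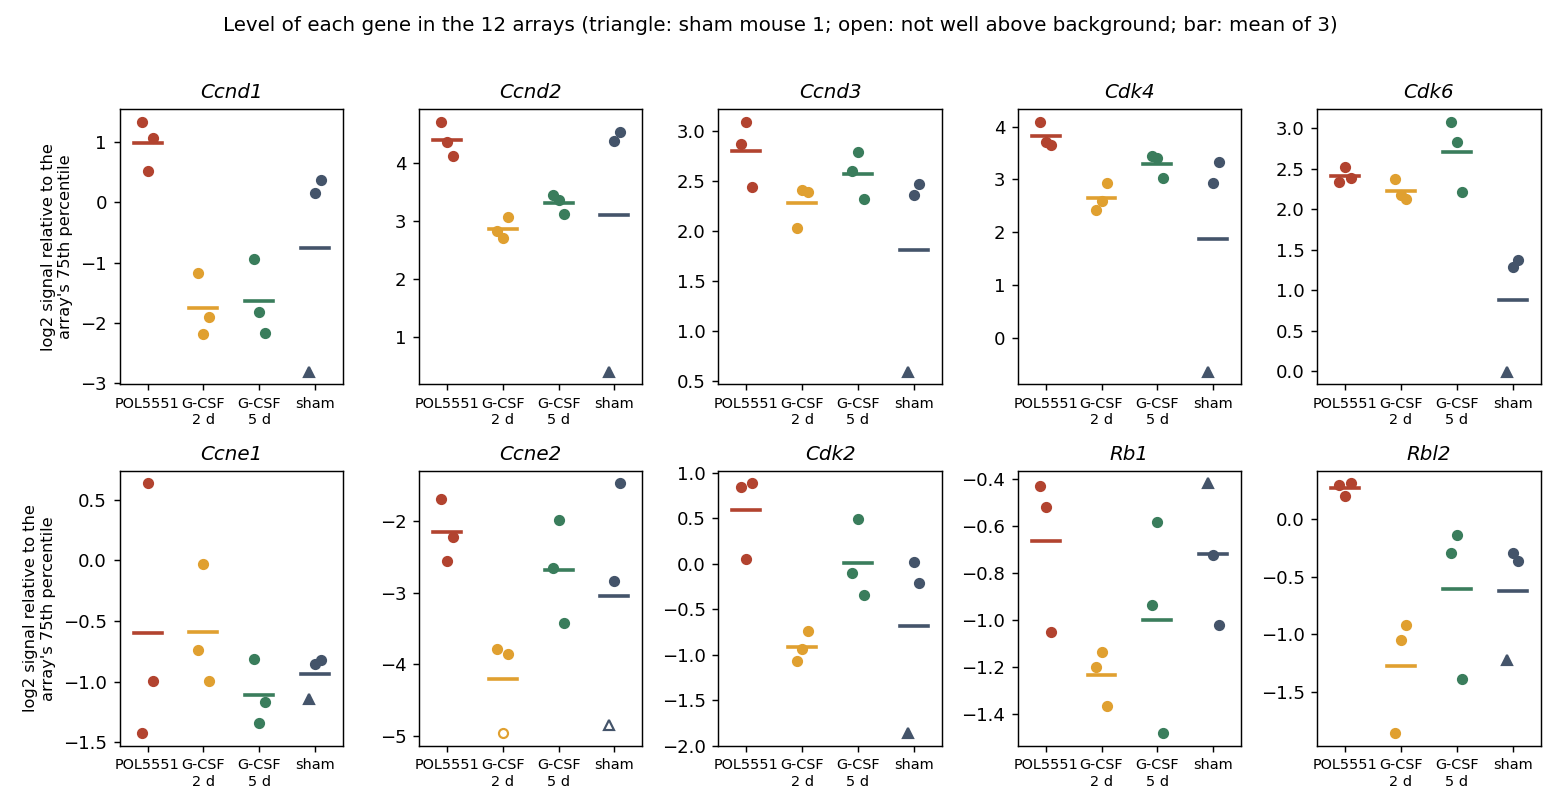
Level of each of the 10 genes in every mouse, as log2 signal relative to the array's 75th percentile on the vertical axis, with POL5551, G-CSF 2 d, G-CSF 5 d and sham mice from left to right. Bars are means of 3 mice, the triangle is sham mouse 1, and open symbols are spots not well above background; Cdk6 is lower in the 3 sham mice than in all 9 treated mice, and Ccnd1 is lower in the 6 G-CSF mice than in the 3 POL5551 mice.

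Cyclin D1 and cyclin D2 were higher in every POL5551 mouse than in every G-CSF mouse, as were Cdk4 and Rbl2. Over all genes, POL5551 mice lay above all 5-day G-CSF mice in 10.3%. The share above all G-CSF mice of both times was not computed. Ccnd1, whose product links mitogen signals to Cdk4 and Cdk6, is read by 1 probe on chromosome 7 (mm9, chr7:152116202-152116261, minus strand). It had levels of 1.34, 0.53 and 1.07 in POL5551 mice. The 2-day G-CSF mice had -1.17, -2.19 and -1.89, and the 5-day G-CSF mice -0.94, -1.82 and -2.16. Sham mice had -2.81, 0.16 and 0.38. All 6 G-CSF mice were below all 3 POL5551 mice and below sham mice 2 and 3, while sham mouse 1 was below every other animal.

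Between POL5551 and 5 days of G-CSF the log2 difference of Ccnd1 was 2.62 (SE 0.73), a 6.14-fold higher level after POL5551, with an adjusted p of 0.309 in limma and groups that did not overlap. When sham mouse 1 was left out the difference was the same, since that mouse enters it only through the pooled spread, and the adjusted p was 0.0316, which made Ccnd1 the 1 member called. In that fit 0.274% of all genes were called, and 0.0362% were called higher. Against sham, Ccnd1 differed by 1.74 (SE 0.73) in POL5551 mice, by -0.996 in 2-day G-CSF mice and by -0.88 in 5-day mice, with adjusted p of 0.127, 0.745 and 0.634. When that mouse was left out the differences were 0.71, -2.02 and -1.91, with adjusted p of 0.384, 0.0670 and 0.249, and in both G-CSF comparisons the groups did not overlap, as in 20.4% of all genes at 2 days and 13.3% at 5 days in this direction. Ccnd1 thus lay below sham mice 2 and 3 at both times of G-CSF and above them after POL5551, without passing the test against sham.

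Ccnd2, the D-type cyclin with the best known role in blood cell precursors, is read by 3 probes. The brightest reads this 60-base sequence (mm9, chr6:127098696-127098755, minus strand), shown because the call of Ccnd2 rests on it:
Ccnd2 probe 1: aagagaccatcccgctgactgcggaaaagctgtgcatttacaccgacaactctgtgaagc
On it the levels were 4.72, 4.38 and 4.13 in POL5551 mice, 2.82, 2.71 and 3.06 in 2-day G-CSF mice and 3.45, 3.36 and 3.13 in 5-day G-CSF mice. In sham mice they were 0.39, 4.38 and 4.54. The 6 G-CSF mice again lay between sham mouse 1 and the other sham mice, and all of them were below all POL5551 mice.

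With all arrays the sham group of Ccnd2 spread so widely (3.11 ± 2.35, SD, n = 3) that no difference from it passed the test. The differences were 1.31 (SE 0.85) in POL5551 mice, -0.24 in 2-day G-CSF mice and 0.21 in 5-day G-CSF mice, with adjusted p of 0.256 to 0.967. Without sham mouse 1, Ccnd2 was lower by 1.59 (SE 0.27) after 2 days of G-CSF, with an adjusted p of 0.0426. It was the 1 member called in that comparison, where 0.5% of all genes were called and 0.0844% were called lower. The 2-day mice shared 1 slide and sham mice 2 and 3 another, so slide and treatment cannot be told apart in this call. Between POL5551 and 5 days of G-CSF the difference was 1.099 (SE 0.85, adjusted p = 0.541) with all arrays. Without sham mouse 1, the other differences from sham were -1.15 after 5 days of G-CSF (adjusted p = 0.260) and -0.05 after POL5551 (adjusted p = 0.922, 95% interval -0.65 to 0.55). Probes 2 and 3 gave -1.295 and -1.80 after 2 days of G-CSF without sham mouse 1, and -1.18 and -1.16 after 5 days. The 3 probes of Ccnd2 therefore ran the same way, and in each the G-CSF mice did not overlap sham mice 2 and 3.

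Ccnd3, the D-type cyclin used most by lymphoid and erythroid cells, differed less between the groups. On its brightest probe it had 2.87, 3.09 and 2.44 in POL5551 mice, 2.03, 2.41 and 2.39 after 2 days and 2.60, 2.79 and 2.32 after 5 days of G-CSF, and 0.59, 2.36 and 2.47 in sham mice. From sham mice 2 and 3 it differed by 0.38 in POL5551 mice, -0.14 in 2-day G-CSF mice and 0.15 in 5-day G-CSF mice, with 95% intervals of -0.25 to 1.02, -0.78 to 0.50 and -0.49 to 0.79. Probe 2 shares 53 bases with probe 1 and is not an independent measurement. Probe 3 lies apart from them (mm9, chr17:47732637-47732696) and is annotated on the array to an Ensembl transcript and clones but to no RefSeq transcript. It ran the other way, with 0.70, 1.00 and 1.36 in POL5551 mice, 1.32 to 2.06 in G-CSF mice, and 2.34, 1.44 and 1.28 in sham mice, where sham mouse 1 was the highest of the 12.

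Cdk6 was the one gene of the 10 whose treated mice all exceeded all sham mice, an order whose share over all genes was not computed. This kinase of D-type cyclins had levels of 2.33, 2.52 and 2.38 in POL5551 mice, 2.37, 2.17 and 2.12 in 2-day G-CSF mice and 3.08, 2.83 and 2.21 in 5-day G-CSF mice. Sham mice had -0.01, 1.29 and 1.37. The lowest treated mouse was at 2.12 and the highest sham mouse at 1.37, so the result does not rest on sham mouse 1 for its direction.

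The differences of Cdk6 from sham were 1.53 in POL5551 mice, 1.34 in 2-day G-CSF mice and 1.82 in 5-day G-CSF mice (SE 0.39 each), which are 2.89-fold, 2.53-fold and 3.54-fold higher levels. Their adjusted p values in limma were 0.0604, 0.409 and 0.170. These comparisons share the 3 sham mice and are not independent of each other. Groups that did not overlap, with the treated mice higher, were found in 10.6%, 6.63% and 4.41% of all genes. Without sham mouse 1 the differences were 1.08, 0.89 and 1.38 (SE 0.29 each), with adjusted p of 0.143, 0.123 and 0.207. Cdk6 passed limma's test after POL5551 when sham mouse 2 or 3 was left out instead (adjusted p of 0.0453 and 0.0347). The sham group then rested on sham mouse 1 and the other mouse kept. Cdk6 also passed when only probes well above background on all 12 arrays were tested (adjusted p of 0.0401). Between POL5551 and sham, refits without 1 array in turn called 60 to 4663 genes, and that filter called 2026, against 744 in the main fit. POL5551 mice and 5-day G-CSF mice differed in Cdk6 by -0.29, with a 95% interval of -1.16 to 0.57.

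**Figure D2:**
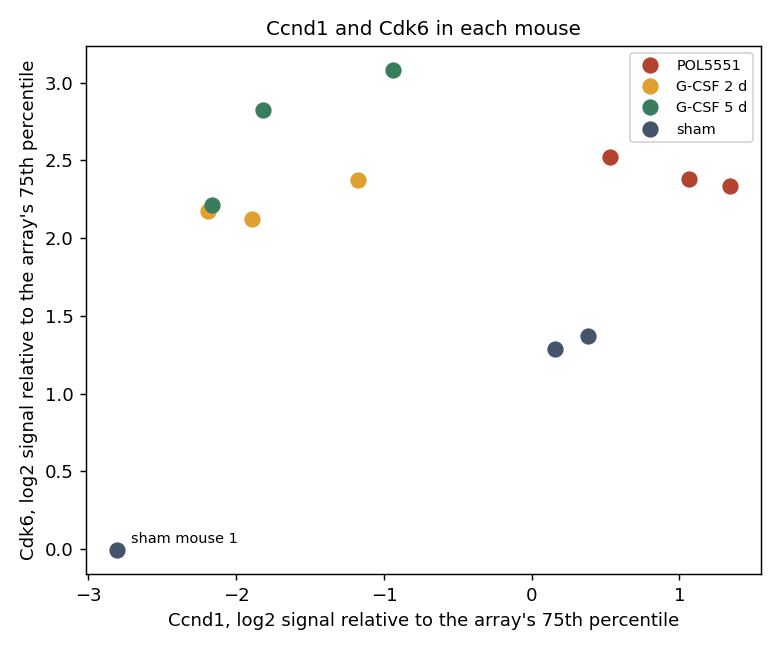
Level of Ccnd1 on the horizontal axis and of Cdk6 on the vertical axis in each of the 12 mice, both as log2 signal relative to the array's 75th percentile. The 3 POL5551 mice are high in both, the 6 G-CSF mice are high in Cdk6 and at -0.94 or below in Ccnd1, sham mice 2 and 3 lie at 0.16 and 0.38 in Ccnd1 and below the treated mice in Cdk6, and sham mouse 1 is lowest in both.

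The 3 probes of Cdk6 did not behave alike. Probe 1 (mm9, chr5:3529287-3529346) is the brightest and gave the values above. Probe 2 (chr5:3525114-3525173) had 0.38, -0.58 and 0.24 in POL5551 mice, -0.43, -0.17 and -0.05 after 2 days and 1.296, 1.49 and 1.26 after 5 days of G-CSF, and -2.86, -1.54 and 0.01 in sham mice. Only after 5 days of G-CSF did it stand clear of sham, by 2.81 (SE 0.59) with an adjusted p of 0.151 over all probes. Probe 3 (chr5:3522088-3522147), the one annotated to the curated RefSeq transcript, was dim, at -3.36 to -1.07 over the 12 arrays, and every treated group overlapped sham on it. Its difference from sham was 0.35 after POL5551, -0.38 after 2 days and 1.06 after 5 days of G-CSF (SE 0.52 each). Exon and UTR annotation on mm9 was not used here, so which Cdk6 transcripts carry each probe was not tested.

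Cdk4, the other kinase of D-type cyclins, was higher after POL5551 than in sham mice on all of its 4 probes. Its brightest probe reads this sequence (mm9, chr10:126503162-126503221, plus strand), shown because it lies apart from the other 3 probes:
Cdk4 probe 1: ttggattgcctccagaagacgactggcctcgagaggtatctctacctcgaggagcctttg
There the levels were 4.09, 3.72 and 3.64 in POL5551 mice, 2.41, 2.59 and 2.93 after 2 days and 3.43, 3.41 and 3.02 after 5 days of G-CSF, and -0.63, 2.93 and 3.34 in sham mice. POL5551 mice did not overlap any other group. They lay above all sham mice in 10.6% of all genes and above all 5-day G-CSF mice in 10.3%. Mice given G-CSF for 5 days also lay above those given it for 2 days, as in 11.8% of all genes.

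The difference of Cdk4 between POL5551 and sham mice was 1.94 (SE 0.80, adjusted p = 0.123) with all arrays and 0.68 (SE 0.29, adjusted p = 0.257) without sham mouse 1. On the other 3 probes it was 1.70 to 1.88, and 0.80 to 1.01 without sham mouse 1. Probes 3 and 4 share 53 bases. With sham mouse 3 left out instead, Cdk4 was called after POL5551, with a difference of 2.67 and an adjusted p of 0.0493, and the sham group then rested on mice 1 and 2. Refits without 1 array in turn called 60 to 4663 of all genes in this comparison. POL5551 mice differed from 5-day G-CSF mice by 0.53 (95% interval -1.24 to 2.29), and 5-day from 2-day mice by 0.64 (-1.12 to 2.41).

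**Figure D3:**
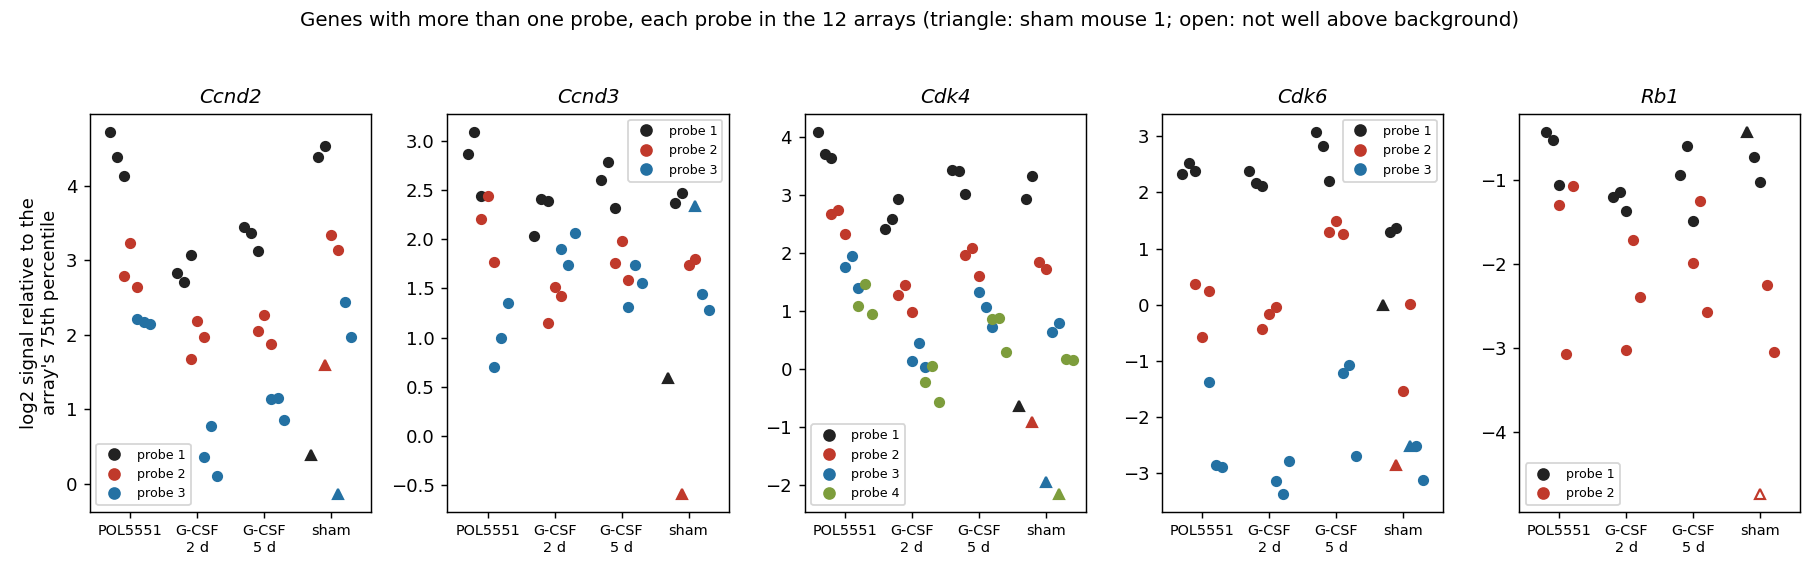
Each probe of the 5 genes with more than 1 probe, as log2 signal relative to the array's 75th percentile, in POL5551, G-CSF 2 d, G-CSF 5 d and sham mice from left to right; the triangle is sham mouse 1 and open symbols are not well above background. The 3 probes of Ccnd2 and the 4 of Cdk4 run in parallel, while probe 3 of Ccnd3 is highest in sham mouse 1 and on probe 3 of Cdk6 treated and sham mice overlap.

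RefSeq's promoter table (GRCm38.p6, 250 bases before to 50 after the start) had entries for 6 of the 10 genes, 7 entries in all, since Ccnd3 has a pair of starts. Ccnd1, Ccnd2, Ccne2 and Rb1 were not among them. The 250 bases before the start of both D-cyclin kinases and of Cdk2 are shown, since Cdk4 and Cdk2 were higher after POL5551 than in all sham mice, as was Cdk6. The start listed for Cdk6 is an internal one. Its window lies within the RefSeq interval of the gene (chr5:3341004-3531008), not upstream of it. Capitals mark the E-box CACGTG, which MYC family factors bind, in Cdk6 and Cdk4, and the E2F form TTTCCCGC, read on the opposite strand, in Cdk2.
Cdk6 (chr5:3343643-3343892, plus strand): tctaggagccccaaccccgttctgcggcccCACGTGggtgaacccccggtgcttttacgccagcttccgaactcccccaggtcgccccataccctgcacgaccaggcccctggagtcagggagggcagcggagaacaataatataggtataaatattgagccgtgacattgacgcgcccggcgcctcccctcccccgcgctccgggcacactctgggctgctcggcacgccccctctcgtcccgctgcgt
Cdk4 (chr10:127063285-127063534, plus strand): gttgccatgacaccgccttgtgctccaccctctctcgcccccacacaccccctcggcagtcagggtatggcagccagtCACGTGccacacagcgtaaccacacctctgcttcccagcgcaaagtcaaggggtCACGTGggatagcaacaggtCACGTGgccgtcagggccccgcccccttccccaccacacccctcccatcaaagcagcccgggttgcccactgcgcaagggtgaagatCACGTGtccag
Cdk2 (chr10:128705052-128705301, minus strand): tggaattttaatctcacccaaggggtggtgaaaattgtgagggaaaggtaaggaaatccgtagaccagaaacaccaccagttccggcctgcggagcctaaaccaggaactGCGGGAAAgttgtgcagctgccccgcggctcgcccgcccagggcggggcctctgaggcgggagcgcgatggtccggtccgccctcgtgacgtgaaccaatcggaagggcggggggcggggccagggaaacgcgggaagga

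On both strands of the 32851 promoters in the table, CACGTG was found in 7.15%, and in 2 of the 7 member promoters, once in Cdk6 and 4 times in Cdk4. At least 4 copies were held by 8 promoters of the whole table, 0.0244%. TTTCCCGC was found in 1.07% of all promoters and in that of Cdk2 alone among the members. The other E2F forms searched, TTTCGCGC, TTTGGCGC and TTTGCCGC, were in no member promoter. The GC box GGGCGG was in 35.7% of all promoters and in 6 of the 7, all but Cdk6. The cell cycle homology region TTTGAA was in 17.9% and in that of Rbl2, and the STAT form TTCNNNGAA was in 8.3% and in none of the 7. None of the capitals overlaps another of these motifs, and a match describes the letters of the window only.

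Cdk2 and cyclin E2 were lowest after 2 days of G-CSF. Cdk2, the kinase of cyclin E and later of cyclin A, had 0.85, 0.05 and 0.89 in POL5551 mice, -1.07, -0.94 and -0.74 in 2-day G-CSF mice, -0.10, 0.49 and -0.35 in 5-day G-CSF mice, and -1.86, 0.02 and -0.21 in sham mice. The 3 mice of the 2-day group, which had a slide of their own, were below every POL5551 mouse, every 5-day mouse and sham mice 2 and 3. Over all genes, the 2-day mice lay below all 5-day mice in 11.8% and below sham mice 2 and 3 in 20.4%. The share for all these groups at once was not computed. The difference between 5 and 2 days was 0.93 (SE 0.48, adjusted p = 0.350), and between POL5551 and sham 1.28 (SE 0.48, adjusted p = 0.107). From sham mice 2 and 3, Cdk2 differed by 0.69 after POL5551 and by -0.83 after 2 days of G-CSF, with adjusted p of 0.315 and 0.184.

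Ccne2, an E2F-driven cyclin that activates Cdk2, was dim. It had -1.70, -2.55 and -2.23 in POL5551 mice, -3.79, -4.97 and -3.86 in 2-day G-CSF mice, -2.66, -1.99 and -3.42 in 5-day G-CSF mice, and -4.85, -2.83 and -1.47 in sham mice. Mouse 2 of the 2-day group and sham mouse 1 were not well above background. The 2-day mice lay below the 5-day and POL5551 mice without overlap, for which no joint share of all genes was computed. The difference between 5 and 2 days was 1.52 (SE 0.73, adjusted p = 0.326). In the comparison of 5 with 2 days, Ccnd2, Ccne2, Cdk2 and Cdk4 were higher without overlap, 4 of the 10 genes against 11.8% of all genes, and 9 of the 10 differences were above 0, with a median of 0.46 against -0.27 over all genes.

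Ccne1, the other activator of Cdk2, did not follow Ccne2. It had -1.43, 0.64 and -0.999 in POL5551 mice, -0.74, -0.03 and -0.9996 after 2 days and -0.82, -1.34 and -1.17 after 5 days of G-CSF, and -1.15, -0.85 and -0.82 in sham mice. All groups overlapped in it, and the adjusted p of the F test was 0.703. Mouse 2 of the POL5551 group was the highest of the 12, and the difference of that group from sham was -0.27 without it and 0.34 with it (0.24 when sham mouse 1 was left out instead). The array design places only 24 bases of this probe on the genome (mm9, chr7:38882937-38882960).

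The RB proteins differed from each other. Rbl2, which encodes p130, the RB protein that binds E2F4 in resting cells, had 0.30, 0.20 and 0.31 in POL5551 mice, -1.86, -1.05 and -0.92 after 2 days and -0.30, -0.14 and -1.39 after 5 days of G-CSF, and -1.22, -0.29 and -0.37 in sham mice. All 3 POL5551 mice exceeded the other 9 mice, for which no share of all genes was computed. Over all genes they exceeded all sham mice in 10.6% and all 5-day G-CSF mice in 10.3%. The difference of POL5551 from sham was 0.90 (SE 0.42, adjusted p = 0.148), and 0.60 without sham mouse 1 (adjusted p = 0.427). After 2 days of G-CSF it was -0.65 with all sham mice and -0.95 (SE 0.41, adjusted p = 0.193) without sham mouse 1.

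Rb1, which encodes the founding RB protein, had -0.43, -0.52 and -1.05 in POL5551 mice, -1.20, -1.14 and -1.37 after 2 days and -0.94, -0.59 and -1.48 after 5 days of G-CSF, and -0.42, -0.73 and -1.02 in sham mice. Sham mouse 1 was the highest of the 12 here, in contrast to most of the other genes. The difference after POL5551 was 0.06 (95% interval -0.66 to 0.77), and 0.21 without sham mouse 1. After 2 days of G-CSF it was -0.51 (SE 0.33, adjusted p = 0.695), with the 2-day mice below all sham mice, as in 5.36% of all genes, and -0.36 without sham mouse 1. Its second probe was dimmer, at -4.73 to -1.07, and not well above background in sham mouse 1. On that probe the difference from sham was 1.53 after POL5551 and 0.96 after 2 days of G-CSF (SE 0.71 each), and 0.83 and 0.27 (SE 0.65 each) without sham mouse 1. None of these passed the test, and every group overlapped sham on that probe.

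**Figure D4:**
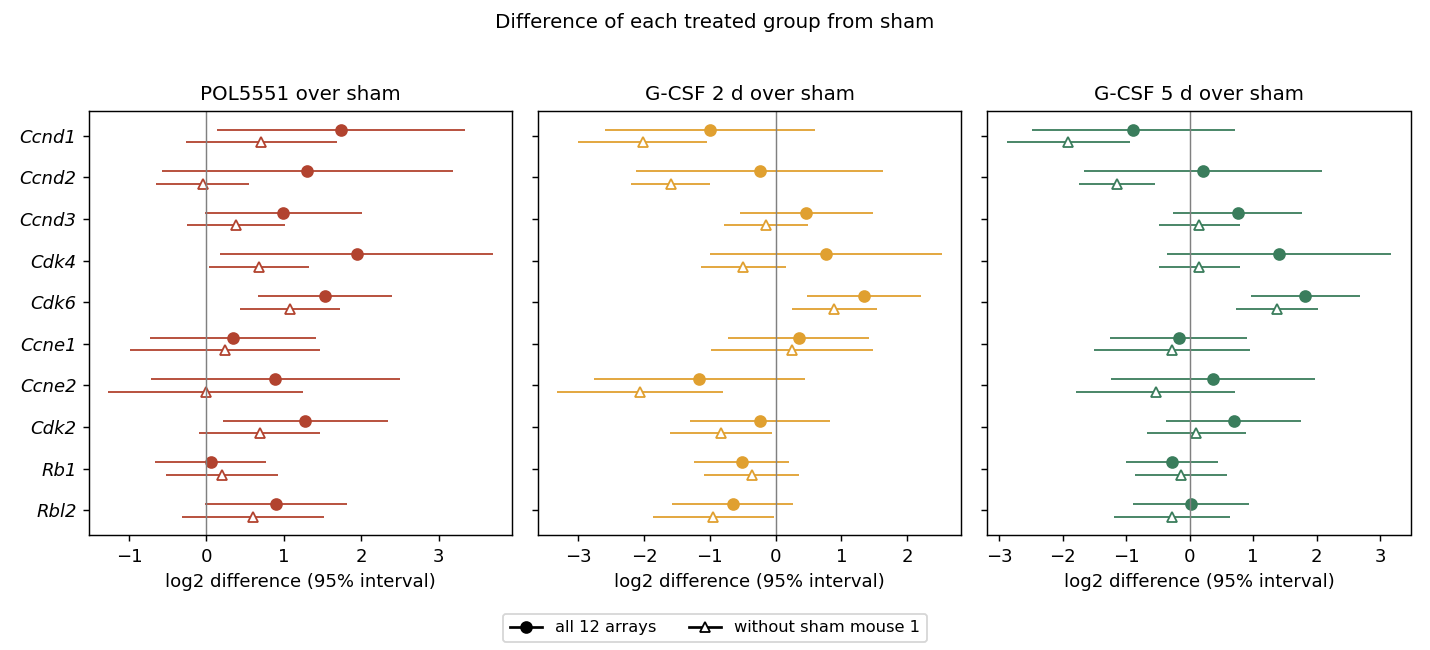
Log2 difference of each treated group from sham, with its 95% interval from limma, for the 10 genes, with all 12 arrays (circles) and without sham mouse 1 (triangles). Cdk6 lies above 0 with its interval in all 3 comparisons either way, whereas Ccnd1 and Ccnd2 lie below 0 with their intervals after G-CSF only without sham mouse 1.

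Taken as a list, the 10 genes were all above 0 between POL5551 and sham mice, with a median difference of 1.14 against -0.52 over all genes, of which 35.9% were above 0. All genes include dim ones, and the off-tissue probes averaged -4.59 in POL5551 and -2.78 in sham mice. No background of equally bright genes was computed. Markers of other cells ran both ways, with 8 of 9 neutrophil markers above 0 (median 0.95) and 1 of 6 T and NK markers (median -0.89). In 5 of the 10, Ccnd1, Cdk2, Cdk4, Cdk6 and Rbl2, POL5551 mice exceeded all sham mice, against 10.6% of all genes. Without sham mouse 1 the count above 0 was 8 and the median 0.49, and the same 5 genes did not overlap, against 12.1% of all genes. Between POL5551 and 5 days of G-CSF, 9 of the 10 were above 0, with a median of 0.53 against -0.28, and Ccnd1, Ccnd2, Cdk4 and Rbl2 did not overlap, against 10.3% of all genes. After 2 days of G-CSF 4 of the 10 were above 0, with a median of -0.24 against 0.10 over all genes. With sham mouse 1 left out that became 2 of 10 with a median of -0.66, and 6 genes, Ccnd1, Ccnd2, Ccne2, Cdk2, Rb1 and Rbl2, lay below sham mice 2 and 3, against 20.4% of all genes. After 5 days the median was 0.28 against -0.13, and -0.20 without sham mouse 1.

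Slide and group were partly separable. On slide 1, which held POL5551 mouse 1 and sham mouse 1, 8 of the 10 genes were higher after POL5551, with differences up to 4.73 (Cdk4). On slide 2, which held POL5551 mouse 2 and sham mice 2 and 3, the difference was 0.26 in Ccnd1, -0.08 in Ccnd2 and 0.68 in Ccnd3. It was 0.58 in Cdk4, 0.14 in Cdk2, 1.19 in Cdk6, 0.53 in Rbl2, 0.35 in Rb1, 1.47 in Ccne1 and -0.40 in Ccne2. On slide 3, POL5551 mouse 3 exceeded 5-day mouse 2 by 2.89 in Ccnd1, 0.77 in Ccnd2, 0.45 in Rbl2, 0.40 in Cdk2, 0.35 in Ccne1 and 0.23 in Cdk4. The difference there was -0.34 in Ccnd3, -0.24 in Ccne2, -0.45 in Cdk6 and -0.46 in Rb1. All 3 mice of the 2-day group were on a slide of their own, so that slide and 2 days of G-CSF cannot be told apart. Without sham mouse 1, every difference of that group from sham set its slide against slide 2. With the median of the off-tissue probes as a covariate, 7 of the 10 differences between POL5551 and sham were below 0, and that of Cdk6 was 0.43 in POL5551 mice, 1.47 in 2-day G-CSF mice and 1.27 in 5-day G-CSF mice.

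Of the lists around these genes, none had a member called with all 12 arrays. The E2F target genes, 23 genes of DNA replication and the cycle, had 21 above 0 between POL5551 and sham mice, with a median of 0.93, and 0.72 without sham mouse 1. The smallest p values among them belonged to Rrm1, the large subunit of ribonucleotide reductase, with a difference of 1.17 (SE 0.30, adjusted p = 0.0608), and Pola1, the catalytic subunit of DNA polymerase alpha, with 2.13 (SE 0.59, adjusted p = 0.0660). Without sham mouse 1 these differences were 0.93 in Rrm1 and 1.37 in Pola1, with adjusted p of 0.148 and 0.170. Rrm1 had 0.34, 0.72 and 0.35 in POL5551 mice and -1.16, -0.49 and -0.43 in sham mice, so that all 3 were above all sham mice. After G-CSF the medians were 0.28 at 2 days and 0.46 at 5 days, and -0.10 and 0.15 without sham mouse 1. Mcm6 (-0.45) and Mcm2 (0.93), parts of the replicative helicase, had the smallest p at 2 days, and Mcm2 (1.44) and Pola1 (1.25) at 5 days. Leaving out sham mouse 1 gave -0.57 and 0.012 for Mcm6 and Mcm2 at 2 days, and 0.52 and 0.50 for Mcm2 and Pola1 at 5 days.

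The 18 partners of RB and E2F had 15 above 0 after POL5551, with a median of 0.77, and 0.54 without sham mouse 1, led by E2f2, an activating E2F (1.74, SE 0.48, adjusted p = 0.0662), and E2f8, a repressing one (1.42, SE 0.40, adjusted p = 0.0676), which differed by 1.25 and 1.31 without that mouse (adjusted p of 0.193 and 0.189). After 2 days of G-CSF the median was 0.27, with E2f7 (1.21) and Lin52 (1.22) at the smallest p, and after 5 days it was 0.42, with E2f8 (1.00) and E2f5 (-1.09). The median at 2 days turned to -0.28 when sham mouse 1 was left out, with 7 of 18 above 0, against 11 with all arrays, and that at 5 days was 0.092. The named genes then differed by 1.31 (E2f7) and 1.45 (Lin52) at 2 days, and by 0.89 (E2f8) and -0.89 (E2f5) at 5 days. The 15 genes of kinase activation and cyclin turnover were all above 0 after POL5551, with a median of 1.04, and 0.55 without sham mouse 1. Skp1, a subunit of SCF ubiquitin ligases, differed by 1.54 and Ambra1, which directs D-type cyclins to degradation, by 1.84 (SE 0.51 and 0.67, adjusted p of 0.0873 and 0.102). These rested in part on sham mouse 1, without which they were 1.02 in Skp1 and 0.84 in Ambra1 (adjusted p of 0.266 and 0.223). After 2 days of G-CSF 7 of the 15 were above 0, and 1 of 15 without sham mouse 1, where Fbxw7 (-0.70) and Gsk3b (-0.67), both known for cyclin degradation, had the smallest p with all arrays and differed by -0.86 and -0.87 without that mouse. After 5 days 11 of 15 were above 0, with Skp1 (0.99) and Ambra1 (1.08) at the smallest p, but without sham mouse 1 the count was 7 of 15, and Skp1 differed by 0.47 and Ambra1 by 0.077.

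Among the 7 CDK inhibitors, Cdkn1c, which encodes p57, an inhibitor known for holding stem cells at rest, was lower in all 6 G-CSF mice than in all POL5551 mice and in sham mice 2 and 3. For this order too, no share of all genes was computed. It had 1.56, 1.60 and 1.47 in POL5551 mice, -0.29, -0.73 and -0.12 after 2 days and 0.45, -0.26 and -0.15 after 5 days of G-CSF, and 0.43, 1.84 and 1.92 in sham mice. Its difference from sham was -1.78 (SE 0.41, adjusted p = 0.313) after 2 days and -1.39 (adjusted p = 0.328) after 5 days. Without sham mouse 1 it was lower by 2.26 (SE 0.30) after 2 days of G-CSF with an adjusted p of 0.0218, a comparison between slides. It then differed by -1.87 after 5 days (adjusted p = 0.0796) and by -0.34 after POL5551 (adjusted p = 0.522). Cdkn1b, which encodes p27, differed by -0.65 after 2 days, and by -0.74 without sham mouse 1. Cdkn2b (-3.56, adjusted p = 0.0595) and Cdkn2a (-3.01, adjusted p = 0.0963) had the smallest p after POL5551, but Cdkn2b was not well above background in 2 of the 3 POL5551 mice and Cdkn2a in 1. Leaving out sham mouse 1 gave -2.86 and -2.98 (adjusted p of 0.189 and 0.257). Cdkn2a also differed by -3.01 after 5 days of G-CSF, where it was not well above background in 2 of 3 mice.

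**Figure D5:**
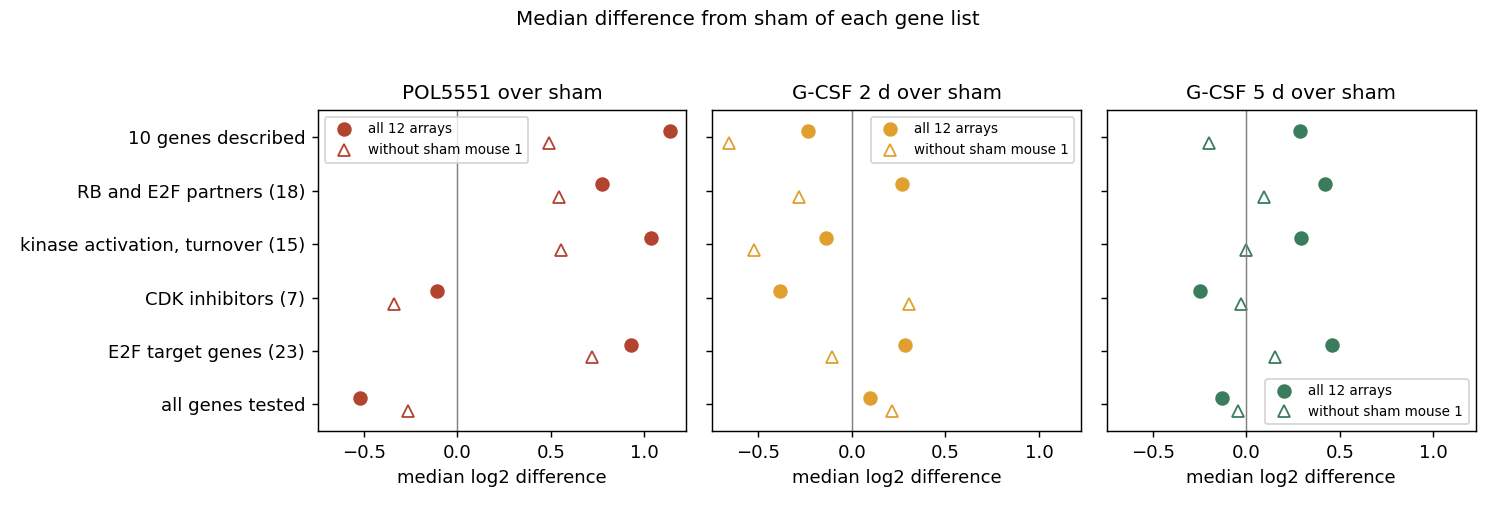
Median log2 difference from sham of the 10 genes, of the 4 lists around them and of all genes tested, for POL5551, G-CSF 2 d and G-CSF 5 d, with all 12 arrays (circles) and without sham mouse 1 (triangles). After POL5551 the lists around the 10 genes have medians above 0.5, except the CDK inhibitors, and all genes together lie below 0. The median of the 10 genes is then 1.14, or 0.49 without sham mouse 1. After 2 days of G-CSF it is -0.24, or -0.66 without sham mouse 1.

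Over the 12 arrays, the genes whose levels ran most closely with Cdk6 were Ndrg1 (Pearson's r = 0.965), Adgrl4 (0.936) and Plscr1 (0.936), among the 17290 named genes whose signal was well above background on every array. Ndrg1 had 0.87, 1.23 and 0.72 in POL5551 mice, 0.34, 0.53 and 0.12 after 2 days and 1.67, 1.33 and 0.75 after 5 days of G-CSF, and -2.17, -0.17 and 0.01 in sham mice. As with Cdk6, all treated mice exceeded all sham mice, and sham mouse 1 was the lowest. The arrays share the groups and the position of sham mouse 1, which these values describe as much as they do the gene.

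Markers of other cells were looked at over the same groups. The summed linear signal of 8 stromal markers ran from 14.2 to 47.2 times the array's 75th percentile in POL5551 mice, 5.48 to 36.1 after 2 days and 9.98 to 35.2 after 5 days of G-CSF, and 3.97 to 8.28 in sham mice. All POL5551 mice and all 5-day mice were above all sham mice in this sum, and the 2-day mice overlapped them. The mean level of the 5 tested of 6 megakaryocyte markers ran from 0.34 to 0.77 in POL5551 mice, -0.86 to -0.23 after 2 days and -0.06 to 0.26 after 5 days of G-CSF, and -2.43 to 0.10 in sham mice. POL5551 mice did not overlap any other group in this mean. In the summed linear signal of the same markers they overlapped sham mice, with 12.0 to 13.8 against 3.34 to 12.5. Among all these markers limma called 3 between POL5551 and sham mice, with Gp1ba of megakaryocytes (2.65, adjusted p = 0.0419) and Pdgfrb of stroma (3.62, adjusted p = 0.0336) higher and Mcpt1 of mast cells (-4.95, adjusted p = 0.0381) lower. The 9 neutrophil markers summed to 5.35 to 11.1 in POL5551 mice, 4.11 to 7.20 after 2 days and 7.52 to 10.3 after 5 days of G-CSF, and 2.66 to 8.12 in sham mice. The 6 markers of T and NK cells summed to 8.54 to 14.3 in POL5551 mice, 19.0 to 37.7 after 2 days and 10.5 to 15.5 after 5 days of G-CSF, and 8.05 to 16.4 in sham mice. Their part in the levels of the 10 genes was not tested.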

How the data were processed

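The members and the gene lists were chosen with earlier results of these data known. Per the file headers, the scanner files deposited by the authors hold the processed intensity of each spot in 1 colour, made by Agilent Feature Extraction 11.5.1.1 (named in the submitters' processing notes) with background subtraction and no scaling between arrays. The authors' deposited table of intensity values served as an alternative only; how it was normalized is not given in the sources used here. Spots marked as outliers (60 to 267 per array) were left out, no spot was saturated, and repeated spots were averaged. From each log2 value of the deposited intensity, the 75th percentile of that array's probes (controls left out) was subtracted. A probe was tested if well above background on at least 3 of 12 arrays, and a gene was represented by its tested probe with the highest mean. Groups were compared in limma 3.58.1 (R 4.3.3) with group means over all arrays, 8 residual and 3.23 prior degrees of freedom, two-sided tests and Benjamini-Hochberg adjustment over 33179 genes (threshold 0.05). The procedure was tested on simulated data. Replicates are separate mice, and with 3 arrays a group precision is limited. Scans were made on 1 day over 6 slides. List genes named in the text were, per comparison with sham, up to 2 called members per direction, or the 2 with the smallest p where none was called; all 10 members and the 3 genes most correlated with the member of smallest F-test p were named. Probe coordinates (mm9) come from the array design; promoters are from RefSeq's GRCm38.p6. Same-numbered mice of different groups correlated between -0.31 and 0.25 in their deviations (7 of 18 pairs over 0.1), so the numbers were not taken to pair them.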

Additional observations from a re-analysis of the deposited data

How the results depend on the processing

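With 3 mice a group and 1 array that stands apart, the data limit what can be seen. The 50 member differences were refitted under the alternatives 1225 times. Of these values, 1166 kept their sign and their side of the threshold, 6 passed it and 53 changed sign. No main difference was past it, so there was no call to lose. Many refits left the difference itself unchanged by design, so the count of 1166 does not measure robustness. Leaving out an array of a group outside the comparison did so. Between POL5551 and sham, the difference of Cdk6 stayed at 1.53 with the replicate block, the arrays of the 2 groups only and every tested probe. With the off-tissue covariate that difference was 0.43. Cdk6 kept its sign against sham in every refit, and the sign of Ccnd1 between POL5551 and 5 days of G-CSF was also kept in all. The refits of Cdk6 used probe 1 or the mean of its probes. On probe 3 alone its difference from sham after 2 days of G-CSF was -0.38, and -0.28 without sham mouse 1.

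The count of genes called in all moved with the setting. Between POL5551 and sham it was 744, and 90 with quantile normalization, 30 with normexp and quantile normalization, 214 with median scaling, 62 in the authors' table, 2026 with probes well above background on all 12 arrays, 0 with the off-tissue covariate (the covariate takes up much of the group difference), 181 with mouse number as a replicate block and 63 with the arrays of the 2 groups only. Between 2 days of G-CSF and sham it was 11, and 5 with normexp and quantile normalization, 5 with probes well above background on all 12 arrays, 17 with the off-tissue covariate, 6 with the replicate block and 0 with the arrays of the 2 groups only. Between 5 days and sham it was 22, and 12 with probes above background on all 12 arrays, 35 with the mean of all probes, 36 over probes, 0 with slide as a fixed block, 14 with the replicate block and 1 with the arrays of the 2 groups only. Between 5 and 2 days it was 0, and 3 with quantile normalization and 7 with the arrays of the 2 groups only. Between POL5551 and 5 days of G-CSF it was 20, and 5 with normexp and quantile normalization, 8 in the authors' table, 5 with probes above background on all 12 arrays, 0 with slide as a fixed block, 0 with the off-tissue covariate, 6 with the replicate block and 60 with the arrays of the 2 groups only. The cause of these moves was not tested. Without 1 array in turn the counts ran from 60 to 4663 (POL5551 over sham), 2 to 166 (2 days over sham), 1 to 55 (5 days over sham), 0 to 14 (5 over 2 days) and 0 to 91 (POL5551 over 5 days).

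Among the members, 1 was called between POL5551 and sham with probes above background on all 12 arrays (Cdk6, 1.53), where fewer genes were tested. Without 1 array in turn 0 to 2 members were called between POL5551 and sham, 0 to 1 between 2 days and sham, and 0 to 1 between POL5551 and 5 days. The replicate block called no member in any comparison.

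With the off-tissue covariate the sign turned between POL5551 and sham in Ccnd1 (-0.69), Ccnd2 (-1.81), Ccnd3 (-0.53), Ccne2 (-1.43), Cdk2 (-0.13), Cdk4 (-1.001) and Rbl2 (-0.12). It turned between 2 days and sham in Ccnd2 (0.13), and between 5 days and sham in Ccne2 (-0.81), Ccnd2 (-1.36), Ccnd3 (-0.0088), Cdk2 (-0.012), Cdk4 (-0.070) and Rbl2 (-0.49). Between 5 and 2 days it turned in Ccnd1 (-1.39), Ccnd2 (-1.49), Ccnd3 (-0.66), Cdk4 (-1.18) and Cdk6 (-0.20), and between POL5551 and 5 days in Ccnd3 (-0.52), Ccne2 (-0.62), Ccnd2 (-0.45), Cdk2 (-0.12) and Cdk4 (-0.93). The mean of all probes turned Rb1 at 2 days (0.23), Rb1 at 5 days (0.56) and Ccnd2 at 5 days (-0.27) against sham, through the other probes of these genes. Slide as a fixed block turned Rb1 (0.66) and Ccne1 (0.38) at 5 days against sham, and Ccnd3 (-0.34), Ccne2 (-0.24) and Rb1 (-0.46) between POL5551 and 5 days. Normexp with quantile normalization turned Ccne2 at 5 days against sham (-0.039). The cause was not tested.

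Leaving out 1 array in turn, the differences between POL5551 and sham ran from -0.050 to 2.02 in Ccnd2, -0.0073 to 1.68 in Ccne2, -0.095 to 0.25 in Rb1 and -0.27 to 0.76 in Ccne1. Those of Cdk6 ran from 1.08 to 1.77 and those of Cdk4 from 0.68 to 2.67. Between 2 days and sham they ran from -1.59 to 0.48 in Ccnd2, -0.14 to 0.80 in Ccnd3, -0.49 to 1.498 in Cdk4 and -0.83 to 0.12 in Cdk2. Between 5 days and sham they ran from -1.15 to 0.92 in Ccnd2, -0.54 to 1.15 in Ccne2 and -0.28 to 0.41 in Rbl2. Between 5 and 2 days Ccnd1 ran from -0.24 to 0.40, and between POL5551 and 5 days Ccne1 ran from -0.10 to 0.93 and Ccnd1 from 2.36 to 2.97.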
